A study of Mus musculus with 8 samples.

Results

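The expression of 8 genes of the insulin and insulin-like growth factor (IGF) pathway, Igf1r, Insr, Irs1, Irs2, Akt1, Mtor, Rptor and Foxo3, was followed over 4 days of oligodendrocyte (OL) differentiation in culture. They were found by symbol in the deposited expression table, where each has 1 row, and they are 8 of its 23427 genes. Irs1, a docking protein that carries the signal inside the cell, rose 3.85-fold within a day of induction and stood 3.50-fold above its starting level on Day 3. Igf1r, Irs2 and Akt1 were lower on Day 3 than on Day 0, at 0.479, 0.488 and 0.558 of their starting means. No change from Day 0 to Day 3 was called for Insr, Mtor, Rptor or Foxo3. After a rescaling of the libraries described below, the calls for Igf1r and Irs2 were lost and Mtor was called higher.

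The cells were primary oligodendrocyte precursor cells (OPCs), the dividing progenitors of the cells that make myelin, of WT C57BL/6J mice. The study's methods describe cortices of postnatal pups, pooled from several animals, and immunopanning on an antibody against PDGFRα after removal of microglia and endothelial cells on negative plates. Growth medium held PDGF-AA, CNTF and insulin in the methods, whereas the labels give DMEM with serum, and differentiation began when PDGF-AA was taken away and thyroid hormone T3 was added. PDGF-AA is the growth factor that the methods name as removed, and insulin is not named as removed. A figure legend of the paper speaks of growth factors being withdrawn, in the plural, and does not name them. The groups were Day 0, Day 1, Day 2 and Day 3, counted from that step, with 2 libraries each and no untreated culture at the later days, so that time in culture and differentiation cannot be told apart. The paper calls the replicates independent, but the sources used here do not say whether each replicate number was 1 cell preparation, so the p-values measure only the spread between these libraries.

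Insulin and the IGFs bind 2 related receptor tyrosine kinases, the insulin receptor (Insr) and the IGF1 receptor (Igf1r), which phosphorylate the docking proteins Irs1 and Irs2. These recruit PI3-kinase, whose lipid product brings the kinase Akt1 to the membrane. AKT in turn favours mTOR complex 1, which holds mTOR and raptor (Rptor) and drives protein and lipid synthesis, and it keeps FOXO transcription factors such as Foxo3 out of the nucleus. In oligodendrocytes the pathway is known for its part in precursor survival, myelin growth and lipid synthesis. RNA levels are reported here, and phosphorylation, which sets the activity of most of these proteins, was not measured.

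Levels are given in FPKM, which divides fragments by transcript length and library depth and so allows levels of different genes to be set side by side. Fold changes between days are on the log2(FPKM + 1) scale, with standard errors (SE) and adjusted p-values from limma's moderated test over the 12208 genes with an FPKM of 1 or more in 2 or more libraries. A gene is called where its adjusted p is under 0.05, and all 8 genes passed the filter. The steps between low values correspond to an approximate depth of 950000 to 1520000 fragments per library, so that the least covered value, Irs2 in Day 3 replicate 2, rests on about 19 fragments and the best covered, Irs1 in Day 2 replicate 1, on about 550. The median gene tested fell by 0.31 on the log2 scale from Day 0 to Day 3, and median ratio scaling, which sets the typical gene level across libraries, moved that median to -0.039. With that scaling, calls over all genes went from 1460 higher and 3207 lower to 2138 higher and 2042 lower. In bulk RNA, fewer cells of a type and less RNA per cell cannot be told apart.

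The cultures matched their lineage labels by the markers used. The OPC markers Pdgfra, Cspg4 and Ptprz1 fell from Day 0 to Day 3, as did Gpr17, which was listed with them. All 6 OL markers, Mbp, Mag, Mog, Mobp and Cnp among them, rose. The fall of Gpr17 was not called after median ratio scaling (adjusted p = 0.0980). Gpr17 also took another course before Day 3, with day means of 255.6, 451.4, 300.5 and 150.7 FPKM. Its Day 1 difference from Day 0 was called higher (0.82, adjusted p = 0.0401, and 0.0209 after median ratio scaling). Pdgfra, Cspg4 and Ptprz1 were called lower at that step. Lineage markers differed between the replicates, and whether this bears on the 8 genes was not tested. Over the days, the 4 listed OPC markers, Gpr17 among them, summed to 1002, 676, 410.5 and 261 FPKM in replicate 1. In replicate 2 they summed to 1035, 574, 326 and 162. The 6 OL markers summed to 1074, 2787, 9900 and 18960 in replicate 1, and to 787, 3511, 14230 and 26850 in replicate 2. Other cell types also differed between the replicates. The summed FPKM of 5 astrocyte markers lay between 30.3 and 61.6 in the replicate 1 libraries and between 204 and 775 in the replicate 2 libraries, and each of the 5 was higher in replicate 2 on all 4 days. The sum also climbed within each replicate, through 30.3, 38.1, 38.9 and 61.6 over the days in replicate 1 and through 204, 367, 506 and 775 in replicate 2, over the same days as the changes of the 8 genes. None of the 5 was called on Day 3 against Day 0 without a block, and with the replicate number as a block Gfap (adjusted p = 0.457 without, 1.26e-04 with) and Aqp4 (0.545 without, 7.35e-04 with) were called higher. The summed FPKM of 5 neuron markers was 34.7 to 66.3 on Day 0 and 116 to 233 on Day 3, an increase carried by Tubb3, from 40.5 to 172 FPKM (adjusted p = 0.0206). Nefl fell from 2.81 to 0.751 FPKM (adjusted p = 0.0473, and 0.0963 after median ratio scaling), Snap25 went from 5.31 to 0.739 (adjusted p = 0.0618, and 0.0473 with the block) and Syt1 from 1.89 to 1.04 (adjusted p = 0.274), and Rbfox3 was too low to be tested. Microglia markers summed to 2.51 or less with 4 of 5 at 0 in every library, and endothelial and mural markers to 3.43 or less with 2 of 5 at 0. The part of astrocyte or neuron RNA in the levels of the 8 genes was not tested. Igf2 also separated the replicates and is described with the ligands.

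**Figure D1:**
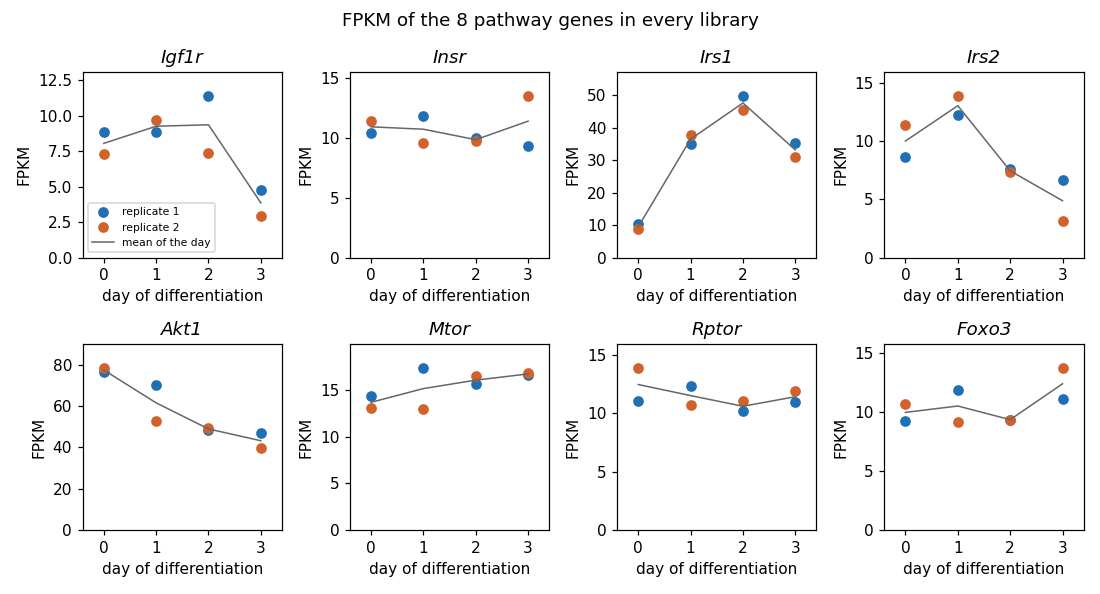
FPKM (vertical axes, starting at 0) of the 8 genes in every library by day of differentiation (horizontal axes); points are libraries, coloured by replicate, and the line joins the means of each day. Irs1 climbs from about 9.48 FPKM on Day 0 to 47.6 on Day 2, Akt1 steps down from 77.4 to 43.1, and Igf1r and Irs2 are lowest on Day 3.

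The receptors differed from each other on the last day. Igf1r, on chromosome 7 (chr7:67952827-68233668, plus strand, GRCm38), read 8.82 and 7.28 FPKM at the start, 8.85 and 9.66 after 1 day, 11.4 and 7.34 after 2 days, and 4.75 and 2.96 after 3 days. The Day 2 libraries overlapped with those of Day 0 and Day 1, and both Day 3 libraries lay below all others. By Day 3 it differed from Day 0 by -0.92 (SE 0.30, adjusted p = 0.0400), close to the threshold. After median ratio scaling it was -0.65 with an adjusted p of 0.110, and leaving out Day 0 replicate 1, Day 0 replicate 2, Day 1 replicate 1, Day 1 replicate 2 or Day 3 replicate 2 in turn gave adjusted p-values of 0.0568 to 0.189. Between Day 2 and Day 3 alone the difference was -1.09 (SE 0.30), below that of all but 223 of the genes tested, with an unadjusted p of 0.00591 and an adjusted p of 0.148, so that this step was not called.

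Insr, on chromosome 8 (chr8:3122061-3279617, minus strand), kept a narrow range. It read 10.5 and 11.4 FPKM at the start, 11.9 and 9.61 after 1 day, 10.0 and 9.71 after 2 days, and 9.31 and 13.5 after 3 days. The widest gap between replicates was on Day 3, whose libraries lay on either side of all the other values. From Day 0 to Day 3 the difference was 0.036 with a 95% interval from -0.50 to 0.58 (adjusted p = 0.916).

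Irs1 and Irs2 are the main docking proteins downstream of both receptors, and from Day 0 to Day 3 they went opposite ways. On Day 1 both were above Day 0, by 1.84 for Irs1 and by 0.36 for Irs2, the latter not called. Irs1, on chromosome 1 (chr1:82233101-82291416, minus strand), has 1 annotated transcript of 9144 bases, of which 2822 exonic bases overlap Gm9747 on the other strand. Irs2, on chromosome 8 (chr8:10984681-11008458, minus strand), has 1 annotated transcript of 6323 bases and shares 162 exonic bases with the antisense transcript 9530052E02Rik. The library kit keeps strand, but whether the counting used it is not given in the sources used here, so reads from such overlaps may be shared.

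The stretches before their RefSeq start sites (GRCm38.p6) are printed because these members changed most and carry the same short motifs close together. Capitals mark an E-box, CACGTG, which is bound by bHLH factors such as the MYC, USF and TFE families, and TGTTTTG, a core described for insulin response elements that FOXO factors bind. The first line is chr1:82291524-82291574 on the minus strand, and the second is chr8:11008940-11008993 on the minus strand, both written 5′ to 3′ along the gene.
Irs1: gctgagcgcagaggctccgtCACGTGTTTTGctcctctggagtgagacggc
Irs2: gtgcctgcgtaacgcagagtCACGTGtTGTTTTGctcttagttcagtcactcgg
In Irs1 the E-box begins 115 bases before the start and shares its last letters with a TGTTTTG that begins 111 bases before it, and a further TGTTTTG begins 32 bases before the start. In Irs2 the E-box begins 44 bases and the TGTTTTG 37 bases before the start, with a single base between them. These distances are from the RefSeq start, and the GENCODE gene given above for Irs2 starts further downstream, at chr8:11008458. Of 32851 RefSeq promoters of the same length, from 250 bases before to 50 bases after the start, 7.15% hold CACGTG and 6.28% hold TGTTTTG on either strand, and 134 promoters, 0.408%, hold both. Promoters were found for 7 of the 8 genes, Insr being the one without an entry, and Irs1 and Irs2 were the 2 of these 7 with both motifs. The motifs were chosen after the sequences were seen, and a match is a run of letters, not a measured binding site.

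Irs1 read 10.2 and 8.72 FPKM at the start, 35.1 and 37.9 after 1 day, 49.7 and 45.5 after 2 days, and 35.3 and 31.0 after 3 days. Every library after induction lay above both Day 0 libraries, and the Day 2 libraries were the highest. The rise on Day 1 was 1.84 (SE 0.16, adjusted p = 7.52e-04), larger than that of all but 108 of the 12208 genes. Its adjusted p remained under the threshold whichever of the 8 libraries was left out, with values of 1.74 to 1.95. Irs1 was the only member called at this step, where 5.04% of all genes were called higher and 7.56% lower.

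On Day 3 Irs1 was still 1.71 above Day 0 (SE 0.16, adjusted p = 1.72e-04), with values of 1.60 to 1.81 when single libraries were left out, and 2.00 after median ratio scaling. The later steps were smaller: 0.38 from Day 1 to Day 2 (SE 0.16, unadjusted p = 0.0446, adjusted p = 0.218) and -0.51 from Day 2 to Day 3 (SE 0.16, unadjusted p = 0.0117, adjusted p = 0.186). Neither was called, so the peak on Day 2 is a description of the means. In replicate 1 and replicate 2 taken alone, Irs1 differed between Day 3 and Day 0 by 1.69 and 1.72.

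Irs2 read 8.61 and 11.4 FPKM at the start, 12.2 and 13.8 after 1 day, 7.57 and 7.30 after 2 days, and 6.63 and 3.12 after 3 days. The Day 1 libraries were the highest and the Day 3 libraries the lowest, with no overlap between Day 0 and Day 3. The Day 3 difference from Day 0 was -0.96 (SE 0.32, adjusted p = 0.0428), made up of -0.33 in replicate 1 and -1.59 in replicate 2. It is the least secure of the called members: its adjusted p was 0.121 after median ratio scaling (-0.69), and 0.0602 to 0.214 when any library other than Day 3 replicate 1 was left out. From Day 1 to Day 2 the difference was -0.73 (SE 0.32, unadjusted p = 0.0487, adjusted p = 0.226), which was not called.

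A ratio of FPKM within a library does not depend on how libraries were scaled to each other. Irs2 stood at 0.841 and 1.31 times the Irs1 level on Day 0, at 0.348 and 0.365 on Day 1, at 0.152 and 0.160 on Day 2, and at 0.188 and 0.101 on Day 3. The docking proteins thus went from near-equal RNA levels to a several-fold excess of Irs1. The log2 ratio, with 1 added to each level and so not fully free of the scaling of libraries, fell by 0.91 per day. Its 2-sided exact permutation p was 0.00238 over 2520 arrangements of the 8 libraries, of which the smallest possible is 7.94e-04. With arrangements kept within each replicate the exact permutation p was 0.00694, and leaving out single libraries gave slopes of -1.08 to -0.77 per day. The test was chosen with earlier results of these data known, so its p-values are no independent support.

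The same ratio for the receptors, Insr to Igf1r, was 1.19 and 1.57 at the start, 1.34 and 0.995 after 1 day, 0.879 and 1.32 after 2 days, and 1.96 and 4.56 after 3 days. The Day 3 libraries were the highest, and the earlier days overlapped. Its slope was 0.28 per day with an exact permutation p of 0.183, and 0.208 within replicates, so no trend over the days was shown. The slope rests largely on Day 3 replicate 2: it was 0.059 without that library, and 0.25 to 0.39 without any one of the others. These were the 2 ratios tested, with Benjamini-Hochberg adjusted p-values of 0.00476 for Irs2 to Irs1 and 0.183 for Insr to Igf1r.

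**Figure D2:**
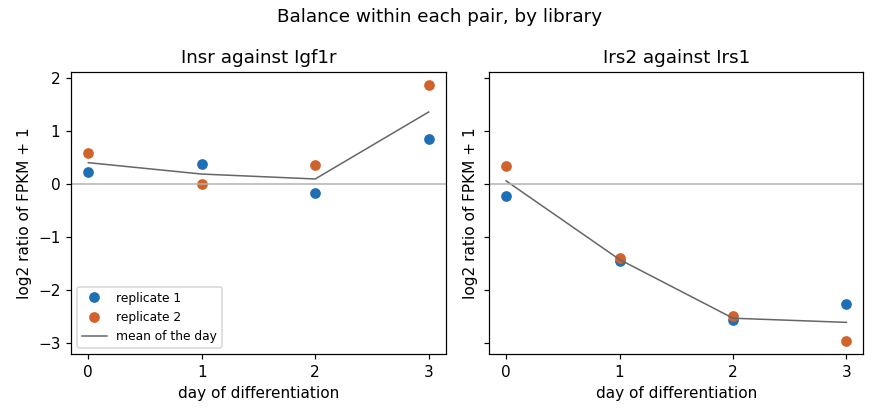
Log2 ratio of FPKM + 1 (vertical axes) within each library by day (horizontal axes), for Insr against Igf1r and for Irs2 against Irs1; points are libraries coloured by replicate, the dark line joins the means of each day, and the pale line marks equal levels. The Irs2 to Irs1 ratio drops on Day 1 and again on Day 2, and the Insr to Igf1r ratio is highest in both Day 3 libraries.

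Akt1, the kinase that PI3-kinase signalling brings to the membrane, lies on chromosome 12 (chr12:112653821-112674884, minus strand). It read 76.6 and 78.2 FPKM at the start, 70.3 and 52.6 after 1 day, 48.3 and 49.4 after 2 days, and 46.7 and 39.6 after 3 days. Its day mean was the highest of the 8 genes on every day, though its Day 2 libraries overlapped with those of Irs1. Both Day 3 libraries of Akt1 lay below all its libraries of the other days. By Day 3 it differed from Day 0 by -0.83 (SE 0.17, adjusted p = 0.00541). It was called in each of the 8 fits with a library left out, at -0.95 to -0.72, and was -0.52 with an adjusted p of 0.0330 after median ratio scaling. No single day's step was called, the adjusted p-values being 0.233, 0.307 and 0.685 in order. Its RefSeq promoter is shown because it was the only one of the 7 found with TGTTTAC, a FOXO motif present in 3.65% of the 32851 promoters, here in capitals and beginning 161 bases before the start, in chr12:112675019-112675065 on the minus strand.
Akt1: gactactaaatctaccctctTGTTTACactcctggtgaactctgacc

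Mtor and Rptor encode the kinase and the substrate-binding subunit of mTOR complex 1, and neither was called between any of the days compared. Mtor, on chromosome 4 (chr4:148448611-148557683, plus strand), read 14.3 and 13.1 FPKM at the start, 17.4 and 13.0 after 1 day, 15.7 and 16.5 after 2 days, and 16.6 and 16.9 after 3 days. Its Day 3 libraries were above those of Day 0, by 0.27 (95% interval from -0.17 to 0.72, adjusted p = 0.295). Against the median gene it was higher: after median ratio scaling its difference was 0.57 with an adjusted p of 0.0484, and after quantile normalization 0.56 with an adjusted p of 0.0498, so the call depends on the scaling.

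Rptor, on chromosome 11 (chr11:119602905-119899576, plus strand), shares 84 exonic bases with the antisense gene Rptoros. It read 11.1 and 13.9 FPKM at the start, 12.3 and 10.7 after 1 day, 10.2 and 11.1 after 2 days, and 11.0 and 11.9 after 3 days. The Day 1 and Day 3 libraries overlapped with those of Day 0, and the Day 2 libraries lay just below them. The Day 3 difference from Day 0 was -0.11 (95% interval from -0.58 to 0.36, adjusted p = 0.699), and its sign turned after median ratio scaling, at 0.18.

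Foxo3, on chromosome 10 (chr10:42181841-42276755, minus strand), encodes the transcription factor that AKT keeps in the cytoplasm. It read 9.25 and 10.7 FPKM at the start, 11.9 and 9.20 after 1 day, 9.38 and 9.36 after 2 days, and 11.1 and 13.7 after 3 days. Both Day 3 libraries were above those of Day 0, while Day 1 overlapped with both days. The difference was 0.28 (95% interval from -0.22 to 0.79, adjusted p = 0.341), and 0.58 with an adjusted p of 0.0800 after median ratio scaling.

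Over the 8 genes, 1 was called higher and 3 lower on Day 3, where 12% of all genes tested were called higher and 26.3% lower. After median ratio scaling 2 were called higher, Irs1 and Mtor, and 1 lower, Akt1, where 17.5% of all genes were called higher and 16.7% lower. The median difference of the 8 as deposited was -0.037, against -0.31 for all genes. A test for any difference among the 4 days called the same 4 genes, Irs1 (adjusted p = 2.30e-04), Akt1 (0.0192), Irs2 (0.0459) and Igf1r (0.0470), against 35.2% of all genes, and only Irs1 kept that call after median ratio scaling. None of the 8 was called by limma from Day 1 to Day 2, where 3.89% of genes were called in either direction, or from Day 2 to Day 3, where 0.295% were. Irs1 and Irs2 at the first of these steps, and Igf1r and Irs1 at the second, had an unadjusted limma p under 0.05. The share of all genes under that unadjusted level is not given here, so the shares above are no background for it.

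**Figure D3:**
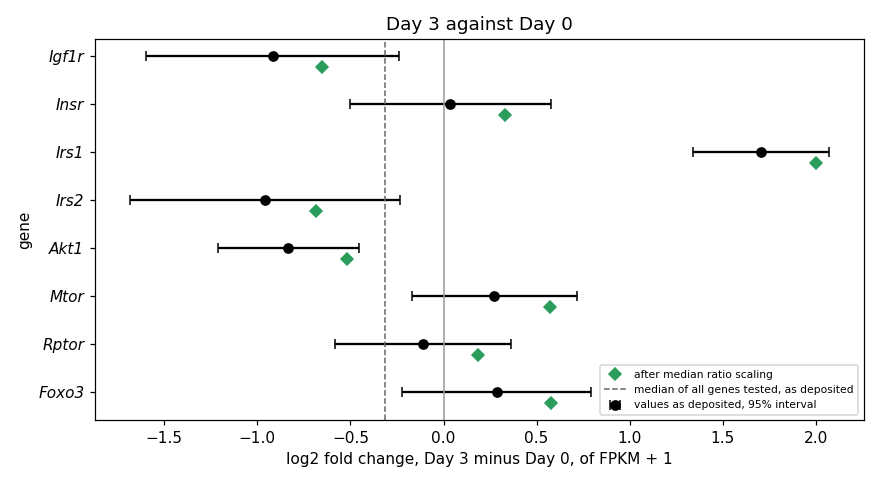
Log2 fold change of FPKM + 1 from Day 0 to Day 3 (horizontal axis) for each of the 8 genes (vertical axis); black points are values as deposited with 95% intervals, green diamonds are the values after median ratio scaling, and the dashed line is the median of all genes tested, -0.31. The Irs1 interval lies far to the right of 0, those of Igf1r, Irs2 and Akt1 lie to the left, and the other 4 cross it.

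The order of the levels changed with Irs1. On Day 0 Akt1 came first at 77.4 ± 1.12 FPKM (SD, n = 2), and the other 7 genes lay between 8.05 ± 1.09 for Igf1r and 13.7 ± 0.884 for Mtor, with neighbours in that order overlapping between replicates. On Day 1 Irs1 had moved from 7th to 2nd place at 36.5 ± 2.00, below Akt1 and above Mtor with no overlap. On Day 2 it reached 47.6 ± 3.0, when its 2 libraries overlapped with those of Akt1 at 48.9 ± 0.798. On Day 3 Akt1 (43.1 ± 5.03) and Irs1 (33.2 ± 3.06) stood apart from Mtor at 16.8 ± 0.170, then came Foxo3, Rptor and Insr at 11.4 to 12.4, whose libraries overlapped, and Irs2 (4.87 ± 2.48) and Igf1r (3.85 ± 1.26) came last and overlapped with each other.

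Among 6476 other genes with a mean of 10 FPKM or more, those closest in pattern to Irs1 over the 8 libraries were Rgnef (Pearson r = 0.998), Dock9 (r = 0.991) and Inppl1 (r = 0.991). Rgnef, a guanine nucleotide exchange factor, had day means of 4.62, 20.3, 27.8 and 19.6 FPKM, with the same Day 2 maximum. Inppl1, which encodes the lipid phosphatase SHIP2 that acts on the product of PI3-kinase, went through 28.9, 123, 194 and 135 FPKM. For Irs2 the closest were Zyg11b (r = 0.996), Rgl2 (r = 0.987) and Tle4 (r = 0.982), and Tle4, a Groucho family corepressor, had means of 32.7, 47.9, 23.4 and 13.4 FPKM. The libraries share days and depth, and the correlations are descriptions.

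The wider pathway was read from 11 lists of 118 genes, of which 104 passed the filter. On Day 3, 15 of the 104 (14.4%) were higher and 26 (25%) lower, near the 12% and 26.3% of all genes tested, and their median difference was -0.19. After median ratio scaling the counts were 21 higher and 14 lower. The counts of single lists are to be read against the same shares of all genes, 12% higher and 26.3% lower, or 17.5% and 16.7% after median ratio scaling.

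At the level of ligands, the cultures held little RNA. Ins1 and Ins2 were listed at 0, Igf1 reached 0.108 FPKM in a single library, and only Igf2 could be tested. Igf2 read 0.353 and 11.7 FPKM at the start, 0.606 and 16.0 after 1 day, 0.445 and 2.64 after 2 days, and 0.745 and 1.13 after 3 days. It was higher in replicate 2 on all 4 days, as the astrocyte markers were, and whether it came from the same cells was not tested. Its Day 3 difference from Day 0, -1.10 (SE 1.24, adjusted p = 0.509), was smaller than its SE. Of 5 IGF binding proteins tested, which hold IGFs outside the cell, Igfbp7 rose from 1.24 to 4.67 FPKM (1.30, adjusted p = 0.0444) and Igfbp4 fell from 2.88 to 0.253 (-1.62, adjusted p = 0.0242), both at low levels. Of all genes, 12% were called higher and 26.3% lower.

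Of 10 other receptors and adaptors tested, 1 rose and 2 fell, against 12% and 26.3% of all genes. After median ratio scaling 2 rose and 2 fell, against 17.5% and 16.7% of all genes. Gab1, a docking protein related in role to the IRS proteins, read 46.3 and 50.8 FPKM on Day 0 and 76.4 and 101 on Day 3 (0.85, SE 0.16, adjusted p = 0.00429). Its relative Gab2 fell from 10.3 to 3.54 FPKM (-1.27, SE 0.34, adjusted p = 0.0189). Socs3, an inhibitor that cytokines such as CNTF induce and that also binds insulin signalling proteins, was down by Day 1 already, with means of 35.6, 15.4, 11.9 and 14.9 FPKM (-1.20 on Day 3, SE 0.19, adjusted p = 0.00202).

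In the PI3-kinase layer, which the docking proteins recruit, 2 of 11 genes were higher and 5 lower, and after median ratio scaling 3 were higher and 3 lower, against 12% and 26.3% of all genes before that scaling. Pik3r3, a regulatory subunit of PI3-kinase, read 20.3 and 28.2 FPKM at the start, 36.8 and 30.2 after 1 day, 143 and 150 after 2 days, and 213 and 178 after 3 days. Its rise, 2.97 (SE 0.19, adjusted p = 5.94e-05), took place mostly between Day 1 and Day 2. Inppl1 rose by 2.17 (SE 0.18, adjusted p = 1.21e-04) along the Irs1 pattern described above. The catalytic subunit Pik3cb fell from 12.3 to 2.76 FPKM (-1.84, SE 0.31, adjusted p = 0.00261), and Pik3r2, another regulatory subunit, from 61.0 to 28.9 (-1.08, SE 0.21, adjusted p = 0.00464).

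Of 8 other AKT kinases and direct AKT substrates, Akt2 alone was called, falling from 54.7 to 30.7 FPKM (-0.82, SE 0.17, adjusted p = 0.00724), close in size to Akt1. Of 5 genes of the TSC complex and Rheb, the brake on mTOR complex 1 and its activator, Tsc2 alone was called (-0.73, SE 0.18, adjusted p = 0.0141), and not after median ratio scaling (adjusted p = 0.0888). Of 7 other mTOR complex subunits, Rictor, which defines mTOR complex 2, rose. It read 9.10 and 9.36 FPKM at the start, 22.8 and 32.6 after 1 day, 33.9 and 26.3 after 2 days, and 22.9 and 19.9 after 3 days (1.13, SE 0.22, adjusted p = 0.00454). Rictor was thus higher in every library after induction, while Rptor of complex 1 overlapped between Day 0 and Day 3. Tti1, Telo2 and Mapkap1 fell by 0.99, 0.83 and 0.52, and these 3 calls were lost after median ratio scaling (adjusted p of 0.0867, 0.121 and 0.297). For the AKT, TSC and mTOR subunit lists alike, the shares of all genes as deposited were 12% higher and 26.3% lower.

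Among 12 genes that mTOR complex 1 acts on or through, 1 rose and 6 fell, against 12% and 26.3% of all genes, and after median ratio scaling 1 rose and 5 fell. Tfeb, a transcription factor of lysosome genes that mTOR complex 1 keeps out of the nucleus, read 6.43 and 3.94 FPKM at the start, 14.5 and 19.5 after 1 day, 39.1 and 43.2 after 2 days, and 42.1 and 34.9 after 3 days (2.70, SE 0.24, adjusted p = 1.51e-04). The translation repressors Eif4ebp1 and Eif4ebp2 fell by 1.95 and 1.48 (adjusted p = 0.00532 and 1.84e-04). Rps6, the ribosomal protein that S6 kinase phosphorylates, fell from 684 to 224 FPKM (-1.60, SE 0.15, adjusted p = 1.87e-04). Of 22 genes that report amino acids or stress to the complex, 4 rose and 2 fell, against 12% and 26.3% of all genes. After median ratio scaling 8 rose and neither of the falls was called, against 17.5% and 16.7% of all genes. Flcn and Fnip1, partners in a complex at the lysosome, rose by 1.10 and 1.42 (adjusted p = 0.00124 and 9.83e-04). Castor2 and the stress-induced Sesn3 fell by 0.84 and 0.73, and neither call held after median ratio scaling (adjusted p of 0.143 and 0.221).

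On the FOXO side, 4 of 9 other FOXO factors and regulators fell, against 26.3% of all genes, and 1 after median ratio scaling. The falls of Sgk3, Xpo1 and Usp7 were 0.93, 0.92 and 0.54 and were lost after median ratio scaling (adjusted p of 0.103, 0.0553 and 0.215). Of 14 genes known as FOXO targets, 5 rose and 1 fell, both as deposited and after median ratio scaling, against 12% and 26.3% of all genes as deposited and 17.5% and 16.7% after the scaling. Fbxo32, a ubiquitin ligase subunit, read 2.63 and 1.29 FPKM on Day 0 and 25.0 and 21.2 on Day 3 (3.06, SE 0.36, adjusted p = 4.38e-04). Bnip3, of mitochondrial autophagy, and Gadd45a, a stress gene, rose by 1.33 and 1.17 (adjusted p = 0.00237 and 0.00187), and the pseudokinase gene Trib2 fell from 45.4 to 4.90 FPKM (-2.97, SE 0.28, adjusted p = 1.88e-04).

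**Figure D4:**
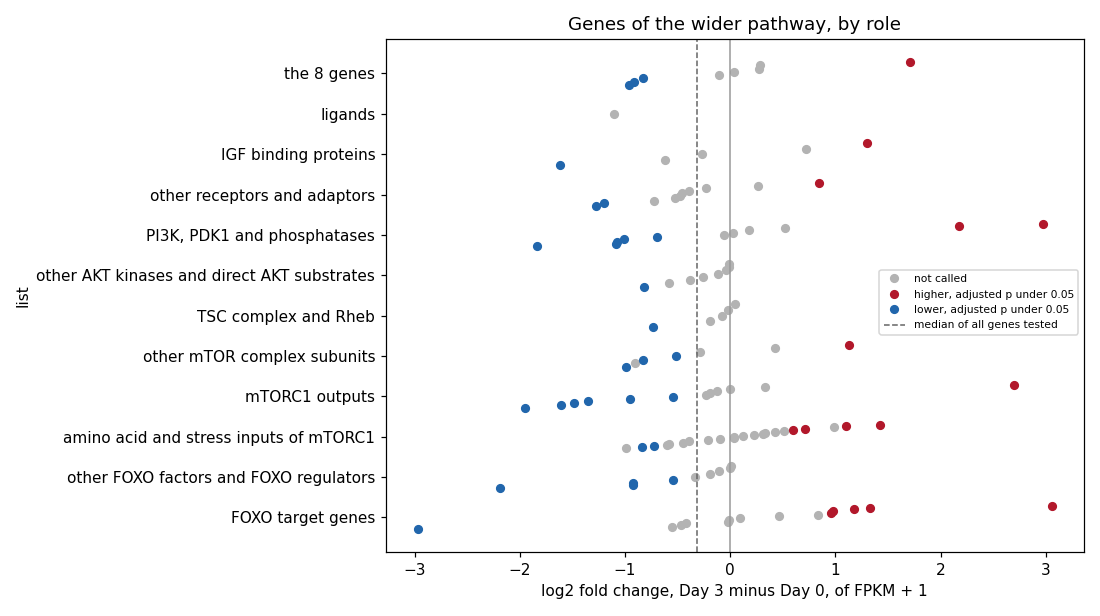
Log2 fold change of FPKM + 1 from Day 0 to Day 3 (horizontal axis) for the 8 genes and for each tested gene of 11 lists of the wider pathway (vertical axis); each point is a gene, red where called higher, blue where called lower and grey where not called, and the dashed line is the median of all genes tested. The furthest points to the right are Fbxo32, Pik3r3 and Tfeb, and the furthest to the left is Trib2.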

How the data were processed

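mRNA of cultured OPCs was sequenced on a MiSeq from stranded TruSeq libraries, and the authors used OmicSoft ArrayStudio to make FPKM values (on mm10, per the submitters' processing notes), deposited as 1 table of 8 libraries. The aligner, gene model and strand setting are not given in the sources used here. No counts were used here, so limma 3.58.1 (R 4.3.3) was fitted to log2(FPKM + 1) with day as a factor, a trend in eBayes and Benjamini-Hochberg adjustment over 12208 genes. Depth was inferred from the steps between low FPKM values, of which 63.0 to 69.2% lay within 0.1 of a whole number in each library, and fragments per gene use the longest annotated transcript.

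Replicate numbers come from the sample titles. Deviations of same-numbered libraries correlated at 0.16 to 0.29 over the 6 pairs of days, each above 0.1, so the numbers were taken to pair the samples. The main fit, from which the shares of all genes are given, left this pairing out, and the fit with the replicate number as a block was the alternative. The other alternatives were a pseudocount of 0.1, no filter or a filter of 10 FPKM, 3 rescalings, the block with median ratio scaling, a fit without the trend, a fit of only the days compared, and leaving out each library.

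The members, lists, markers and tests were chosen with earlier results of these data known. Named from each wider list were up to 4 called genes with the largest change and no overlap between Day 0 and Day 3 libraries, or otherwise the most abundant gene. The 3 genes closest in pattern to the member that rose most and to the one that fell most were also named. Castor2 is listed under an older symbol. Some genes of the lists are not reported here by name. Scripts were tested on simulated data. Promoter sequences are from RefSeq, and gene positions from GENCODE on GRCm38.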

Additional observations from a re-analysis of the deposited data

How the results depend on the processing

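The Irs1 and Akt1 calls from Day 0 to Day 3, the Irs1 call on Day 1 and both ratio results kept their direction and their side of the threshold under every alternative run. Of the 8 genes, 4 were called on Day 3 against Day 0, and 2 without the filter, with libraries rescaled to the same sum, with the replicate block and median ratio scaling together, and with only the days compared; with single libraries left out 2 to 4 were. With median ratio scaling or quantile normalization 3 were, since Mtor was gained. Igf1r and Irs2 were the calls lost, and Irs2 also without a trend (adjusted p = 0.0502). For any difference among the 4 days, 4 were called, and 2 with a pseudocount of 0.1, without the filter, with the same sum, with quantile normalization and with the block and median ratio scaling, 1 with median ratio scaling and 1 without a trend; with single libraries left out 1 to 3 were. Where a library is left out, the lone library of that day is assumed to vary like the other days. The causes were not tested. Depth limits Irs2 and Igf1r most, at about 19 and 32 fragments in Day 3 replicate 2.

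The replicate block alone changed no call among the 8 genes. Over all genes it moved those called from Day 1 to Day 2 from 475 to 803 and from Day 2 to Day 3 from 36 to 163 (143 with median ratio scaling too). From Day 1 to Day 2, 247 were called without the filter, 121 without a trend and 0 with only the days compared; from Day 2 to Day 3, 8 with a pseudocount of 0.1 and 0 without the filter, without a trend and with only the days compared. With single libraries left out, calls were 2769 to 4548 for Day 3 against Day 0 (fewest without either Day 0 library), 583 to 1585 for Day 1 against Day 0, 11 (without Day 2 replicate 2) to 445 for Day 2 against Day 1, 0 to 223 (without Day 3 replicate 1) for Day 3 against Day 2, and 2100 to 3992 for any difference.

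Signs turned only for differences that were not called. In the order same sum, quantile normalization and median ratio scaling (the last with or without the block), Rptor on Day 3 against Day 0 was 0.034, 0.21 and 0.18, Insr on Day 1 against Day 0 was 0.051, 0.11 and 0.046, and Igf1r on Day 2 against Day 1 was 0.025, 0.20 and 0.17. Rptor on Day 1 against Day 0 was 0.029 with quantile normalization. On Day 2 against Day 1, median ratio scaling (with or without the block) and quantile normalization gave 0.076 and 0.090 for Insr, 0.075 and 0.081 for Rptor, and 0.038 and 0.059 for Foxo3. With single libraries left out, Day 3 against Day 0 ranged from -0.21 to 0.28 for Insr and -0.26 to 0.039 for Rptor; Day 1 against Day 0 from -0.17 to 0.11 for Insr, -0.069 to 0.32 for Mtor, -0.25 to 0.048 for Rptor and -0.10 to 0.23 for Foxo3; Day 2 against Day 1 from -0.30 to 0.27 for Igf1r, -0.24 to 0.033 for Insr, -0.10 to 0.29 for Mtor and -0.31 to 0.023 for Foxo3; and Day 3 against Day 2 from -0.075 to 0.42 for Insr.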

Other observations

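A gene of the wider pathway, picked out after its values were seen, was high in the middle of the time course. Sgk1, a kinase related to AKT that shares some of its substrates, read 37.6 and 39.6 FPKM at the start, 123 and 157 after 1 day, 114 and 105 after 2 days, and 50.0 and 25.5 after 3 days. Both middle days lay above both ends with no overlap. The rise on Day 1 was 1.82 on the log2(FPKM + 1) scale (SE 0.28, limma's adjusted p = 0.00387). The fall from Day 2 to Day 3 was -1.59 (SE 0.28), with an adjusted p of 0.0682 without and 0.0405 with the replicate number as a block.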
